A study of Mus musculus with 18 samples.

Results

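Accessible regions that (+)-JQ1 raised both in resting and in LPS-stimulated macrophages were examined by ATAC-seq, which reads open chromatin through the insertion of adapters by the transposase Tn5. The cells were bone marrow-derived macrophages (BMDMs) of Il10-/- mice on a C57BL/6J background, so that every condition, the controls included, lacked endogenous IL-10. Marrow of 3 mice, which were 12-week-old males, was cultured with L929-conditioned medium and gave 18 libraries, 3 for each of 6 conditions. Unstimulated cells received neither agent, 3 conditions received 500 nM (+)-JQ1, 10 ng/mL IL-10 or neither (untreated by the labels, vehicle by the study's methods) for 12 h followed by 50 ng/mL LPS for 4 h, and the remaining ones received (+)-JQ1 alone or IL-10 alone with PBS in place of LPS. All cells were collected at 16 h. By the study's methods the unstimulated cells were untreated, with no vehicle named for them. The part of the vehicle in comparisons of (+)-JQ1 alone with unstimulated cells was not tested.

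The 1962 peaks (1.01% of the 194284 peaks of the union table) were selected on their measured values. Counts were divided by the total count of the library and scaled to CPM, the count per 1000000 counts in peaks, and the 3 libraries of a condition were averaged. A peak was a member when it had at least 1.5 CPM with (+)-JQ1 alone, at least 1.3 times the unstimulated level, at least 1.3 times the LPS level with LPS + (+)-JQ1, and less than 1.5 times the unstimulated level with LPS. Of the members, 1497 were in the authors' distal table and 465 in their promoter table. For comparison, 99169 peaks had the minimum of 1.5 CPM with (+)-JQ1 (hereafter peaks at the minimum level), and 11070 peaks met the same rule turned over, that is, were lowered by (+)-JQ1 with and without LPS.

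The small molecule (+)-JQ1 fills the acetyl-lysine pocket of the bromodomain and extra-terminal (BET) proteins, among them BRD2 and BRD3, and so displaces them from acetylated histones. The displacement of BET proteins is known mostly for loss of transcription of inflammatory and proliferative genes. HEXIM1, which binds the elongation kinase P-TEFb in an inactive complex, and several histone genes are among the transcripts known to rise when BET proteins are inhibited. In macrophages, enhancers are opened chiefly by PU.1 together with C/EBP and AP-1 factors, and LPS, acting through TLR4, opens further ones while closing others.

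Total counts in peaks ran from 12020526 to 25908198 per library, and a member had a median of 175 counts per library. The first unstimulated library stood apart, with the lowest total, the highest TMM scaling factor (1.24, against 0.896 to 1.15 in the other libraries) and the lowest share of counts in promoter peaks (40.8%, against 42.4% to 51.1%). Without it 1846 peaks met the rule, 1477 of them shared with the 1962. All 7 annotated macrophage markers had a promoter peak of 8.83 CPM or more in at least 1 condition, whereas the T cell markers Cd3d, Cd3e and Cd3g had none. Promoter peaks of 5 CPM or more were also present for 2 of 6 neutrophil, 2 of 3 dendritic cell and 2 of 3 fibroblast markers, and among all of these markers only the Cd14 promoter was a member. The scaling mattered for the choice of members, because TMM scaling raised the median log2 ratio of (+)-JQ1 over unstimulated cells by 0.29 over the peaks at the minimum level, from -0.18 to 0.10, but that of LPS + (+)-JQ1 over LPS by only 0.01. With TMM-scaled CPM 5101 peaks met the rule, and 1894 of the 1962 were among them.

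Short motifs of macrophage factors were searched on both strands of the middle 200 bases of every peak. The sequences of 6 members are shown from the mm9 genome, plus strand, 5′ to 3′. They set peaks with such matches beside members with high ratios and without a match. Capitals mark matches to AP-1 (TGANTCA), PU.1 (GAGGAAGT), C/EBP (TTGCNNAA) or MAF (TGCTGAC), and the AP-1 and MAF letters can overlap.
Maf, chr8:118092504-118092703, intergenic: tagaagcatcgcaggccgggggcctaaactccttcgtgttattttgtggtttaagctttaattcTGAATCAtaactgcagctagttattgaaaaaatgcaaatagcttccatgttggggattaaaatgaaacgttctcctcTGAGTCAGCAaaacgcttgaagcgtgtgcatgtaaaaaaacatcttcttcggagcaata
Ppp1r1c, chr2:79553790-79553989, intronic: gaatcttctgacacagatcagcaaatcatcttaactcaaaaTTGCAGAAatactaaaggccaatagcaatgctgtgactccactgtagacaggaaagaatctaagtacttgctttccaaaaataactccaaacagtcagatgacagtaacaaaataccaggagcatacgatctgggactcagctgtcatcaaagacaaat
Ugt1a6a, chr1:89995742-89995941, intronic in other Ugt1a transcripts: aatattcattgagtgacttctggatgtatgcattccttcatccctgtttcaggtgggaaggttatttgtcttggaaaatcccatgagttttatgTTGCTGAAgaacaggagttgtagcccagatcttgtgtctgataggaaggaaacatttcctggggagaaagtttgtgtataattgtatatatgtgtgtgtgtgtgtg
Ccl3, chr11:83453685-83453884, intergenic: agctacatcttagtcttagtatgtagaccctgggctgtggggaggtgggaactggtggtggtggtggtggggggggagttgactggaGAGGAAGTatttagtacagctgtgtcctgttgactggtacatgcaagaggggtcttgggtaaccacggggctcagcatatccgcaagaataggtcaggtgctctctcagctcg
Brd2, chr17:34243456-34243655, intergenic: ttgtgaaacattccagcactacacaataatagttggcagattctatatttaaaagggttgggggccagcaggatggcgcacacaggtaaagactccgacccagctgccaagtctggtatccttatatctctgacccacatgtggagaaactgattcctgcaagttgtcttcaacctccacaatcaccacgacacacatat
Hist1h4j, chr13:21833118-21833317, intergenic: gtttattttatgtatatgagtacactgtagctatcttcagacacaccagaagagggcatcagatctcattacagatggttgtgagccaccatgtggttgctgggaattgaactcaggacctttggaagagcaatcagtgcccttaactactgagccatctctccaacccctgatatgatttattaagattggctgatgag
The window of the intergenic peak far from Maf held AP-1 letters at 2 places and overlapping MAF letters. Those in Ppp1r1c and Ugt1a6a held C/EBP letters, and the window near Ccl3 held PU.1 letters. The windows near Brd2 and Hist1h4j, which were among the peaks with the highest ratios, held none of these 4 motifs.

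Among all members, AP-1 letters were found in 11.6% of the middle windows, against 7.44% of the peaks at the minimum level and 7.13% of the lowered peaks. C/EBP letters were found in 13.6% against 8.40% and 7.82%, PU.1 letters in 5.61% against 2.99% and 2.63%, and MAF letters in 5.81% against 3.63% in both of these sets. The letters of the CTCF core (CCACNAGG) and of STAT (TTCCNGGAA) were less frequent in members, at 2.70% against 3.91% and at 0.25% against 0.65%. The kappaB (GGGANTTCC) and IRF (GAAANNGAA) letters were at 0.97% and 6.93% in members and at 0.84% and 6.74% in the peaks at the minimum level. Distal members carried the AP-1, C/EBP and PU.1 letters in 12.9%, 14.6% and 6.08%, against 8.41%, 9.18% and 3.39% of the distal peaks at the minimum level, and promoter members in 7.53%, 10.3% and 4.09%, against 4.86%, 6.33% and 1.91% of the promoter peaks at that level. Over all peaks of the series the middle windows held AP-1 in 8.63%, C/EBP in 8.58% and PU.1 in 3.40%. These shares describe letters in a window of fixed length and were not tested.

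Members were narrower than the peaks at the minimum level (median width 1123 against 1471 bases) and had a lower GC content (44.9% against 46.8%). Intergenic peaks, which overlap no protein-coding gene of the GENCODE M1 annotation, made up 42.7% of members against 34.9% at the minimum level, and peaks overlapping an intron but no exon made up 33.2% against 33.0%. Peaks overlapping a UTR made up 17.6% against 22.4%. The median distance to the nearest start site of a protein-coding gene was 16785 bases for members and 11762 bases for peaks at the minimum level. Members were nearest to 1519 genes, of which 1227 had 1 member, 193 had 2 and 99 had 3 or more.

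The members' levels with and without (+)-JQ1 were fixed by the rule and are given as a description. Median CPM was 9.24 in unstimulated cells, 13.4 with (+)-JQ1, 10.9 with IL-10, 6.97 with LPS, 10.6 with LPS + (+)-JQ1 and 9.13 with LPS + IL-10. The median ratio was 1.43 for (+)-JQ1 over unstimulated cells and 1.46 for LPS + (+)-JQ1 over LPS, with 10th and 90th percentiles of 1.32 and 1.67 and of 1.33 and 1.85. At the minimum level the same medians were 0.881 and 1.02. The 3 libraries with (+)-JQ1 lay above the 3 without it in 1600 members without LPS (6.9% of all peaks), in 1622 with LPS (9.91% of all peaks) and in 1395 in both (2.42% of all peaks). Members together took 1.88%, 2.04% and 2.31% of the counts of the unstimulated libraries and 3.03%, 3.05% and 3.02% with (+)-JQ1. With LPS they took 1.71%, 1.71% and 1.67%, and with LPS + (+)-JQ1 2.42%, 2.60% and 2.50%. The share was thus lowest with LPS and highest with (+)-JQ1 alone, and in either state the libraries with (+)-JQ1 lay above their controls without it. With IL-10 the share was 2.44% to 2.48%, which overlapped the range of LPS + (+)-JQ1, and with LPS + IL-10 it was 2.02% to 2.12%.

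**Figure D1:**
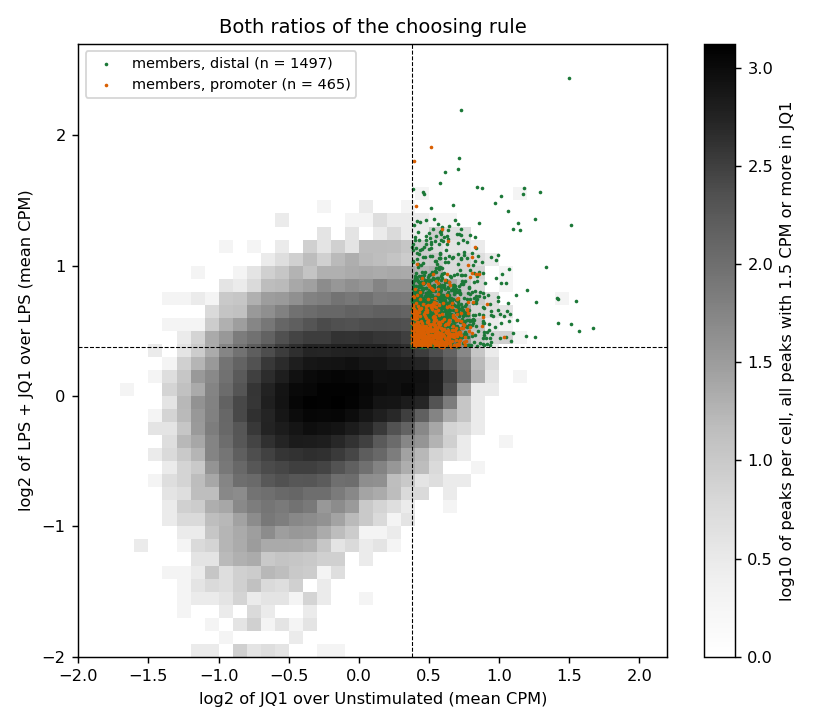
Log2 of the ratio of mean CPM with (+)-JQ1 over unstimulated cells (x) against that of LPS + (+)-JQ1 over LPS (y),  with 3 libraries per condition. Grey shading gives the number of peaks per cell among the 99169 peaks at the minimum level, points are the 1497 distal and 465 promoter members, and dashed lines mark the ratio of 1.3; members fill the upper right corner by construction, and most of the shaded peaks lie to its left and below it.

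In the fit of all 6 conditions (edgeR, quasi-likelihood test, FDR by Benjamini and Hochberg), every member passed the filter on low counts and 1771 of 1962 had an FDR under 0.05 and were higher with (+)-JQ1 alone, beside 9.33% of all 194230 tested peaks. For LPS + (+)-JQ1 against LPS 1225 were called higher, beside 2.07% of all tested peaks, and 1202 were called higher in both contrasts, beside 1.09%. Since the rule used these libraries the counts only describe the members. Without replicate 2 the counts were 987 and 264, and without replicate 3 the count for LPS + (+)-JQ1 was 715. Total counts, the scaling of the rule, in place of TMM gave 1410 calls for (+)-JQ1 alone, beside 5.32% of all tested peaks. For LPS + (+)-JQ1 against LPS they gave 1381, beside 2.45%. The members closest to the limits were a peak near Atg4c with 1.506 CPM in (+)-JQ1, a peak near Col15a1 with a ratio of 1.30011 without LPS, a peak near Pltp with a ratio of 1.30017 with LPS and a peak near Plek with 1.4997 times the unstimulated level in LPS. The closest peaks outside were near Dock10 (1.497 CPM), Zfp87 (1.29995), Nr2c1 (1.29984) and Tes (1.50175).

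To read the same measure in libraries the choice did not use, the rule was applied to 2 replicate numbers and the ratios were read in the other. Of the 2160 peaks chosen without replicate 1, 72.0% had a higher CPM with (+)-JQ1 both with and without LPS in replicate 1, against 23.3% of all peaks at the minimum level. Of the 2412 chosen without replicate 2 the share was 66.7% against 22.1%, and of the 2435 chosen without replicate 3 it was 79.0% against 26.0%. The median ratios in the replicate left out were 1.45, 1.25 and 1.21 without LPS and 1.29, 1.37 and 1.41 with LPS. In each of the 3 cases the share was above that of all peaks at the minimum level. Both ratios reached 1.3 in the replicate left out for only 24.2% to 32.0% of the chosen peaks. The shares are those of the chosen peaks, of which 1270, 1351 and 1480 were members. All 3 unstimulated libraries had higher TMM factors (1.04 to 1.24) than those with (+)-JQ1 (0.896 to 0.964). The replicate left out carried this difference too. With TMM-scaled CPM in both the choice and the reading, the shares were 70.8%, 70.9% and 73.4%. They are those of 5782, 5234 and 5948 peaks chosen on that scale. The share of all peaks at the minimum level was not computed on that scale. The part of the difference in TMM factors in the shares was not tested.

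The LPS response of members was read in the IL-10-treated cells, the only pair of conditions whose 6 libraries the rule did not use. For LPS + IL-10 against IL-10, 665 of 1962 members were called lower, beside 8.06% of all tested peaks, and 104 were called higher, beside 9.65%. The median log2 fold change was -0.27 for members and 0.00 over all tested peaks. The limit on LPS over unstimulated cells had removed peaks raised by LPS, so members were also set beside the 91388 peaks that met this limit and the minimum level, of which 14.0% were called lower and 7.22% higher, with a median of -0.08. Members were also stronger peaks, and of those with 5 CPM or more in (+)-JQ1 39.1% were called lower, against 20.4% of all such peaks within the limit. The calls were mostly of members that LPS also lowered in the absence of IL-10, as 40.6% of the 1560 members with a ratio of LPS over unstimulated cells under 1 were called lower, against 16.9% of the peaks of that kind. For the 402 members with a ratio of 1 or more, 7.71% were called lower and 14.9% higher, close to the 7.93% and 14.3% of all such peaks. The counts of members called lower were 435 without replicate 2 and 392 without replicate 3, and those called higher were 68 and 66 without replicates 1 and 2.

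**Figure D2:**
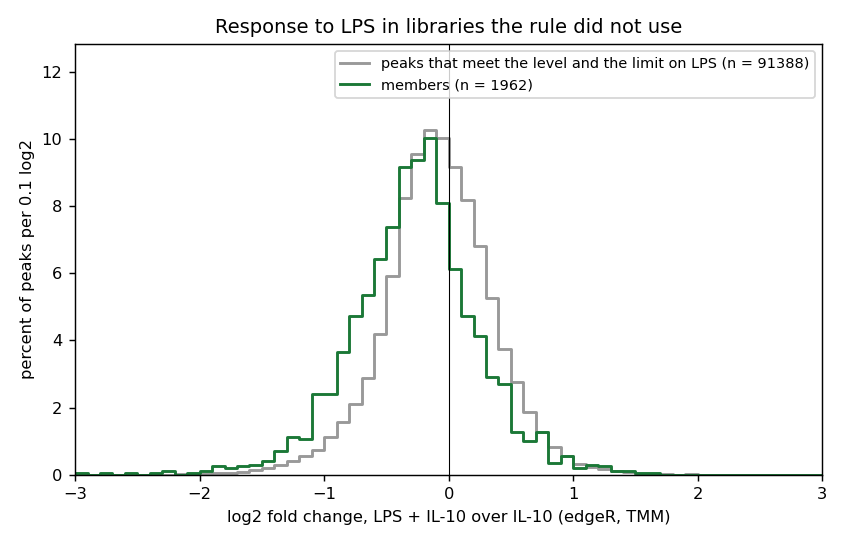
Distribution of the log2 fold change of LPS + IL-10 over IL-10 (x, edgeR with TMM scaling) as the percent of peaks per 0.1 log2 (y), for the 1962 members (green) and the 91388 peaks that met the minimum level and the limit on LPS (grey). The members' curve lies to the left of the grey one, with medians of -0.27 and -0.08.

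The levels in the 12 libraries that the rule used are given as a description. Against their own starting level, 582 members (29.7%) had less than 0.67 times the unstimulated CPM with LPS, beside 22.4% of the peaks at the minimum level, 978 had 0.67 to 1 times and 402 had 1 to 1.5 times. With LPS + (+)-JQ1, 1450 members (73.9%) stood at or above the unstimulated level, beside 37.7% of the peaks at the minimum level. At or above the level with (+)-JQ1 alone stood 397 members (20.2%), beside 47.6%. Among the 582 members most lowered by LPS, the median of LPS + (+)-JQ1 over unstimulated cells was 0.878 and 145 stood at or above the unstimulated level. The interaction term compares the rises with and without LPS that the rule had itself set at 1.3 or more, so its calls among members are no independent test. It had 5 members with a larger rise in LPS (beside 0.649% of all tested peaks) and 7 with a smaller one (beside 3.19%), against 16 and 201 at an unadjusted p under 0.05. With total counts, the scaling of the rule, in place of TMM these became 15 and 1. DESeq2 called 5 and 42 members, and without the first unstimulated library edgeR called 6 and 1.

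IL-10 alone, which shares the unstimulated libraries with the rule, was called higher than unstimulated cells in 792 members, beside 7.97% of all tested peaks, and lower in 5, beside 3.56%. LPS + IL-10, which shares the LPS libraries, was called higher than LPS in 452, beside 4.72%, and lower in 14, beside 5.31%. The median log2 fold changes of members were 0.40 and 0.23 in these contrasts and 0.78 and 0.56 in the corresponding ones with (+)-JQ1. The order of the values without and with LPS depended on TMM scaling. On CPM of the total count the members' median log2 ratios with (+)-JQ1 were 0.51 without LPS and 0.55 with LPS. For IL-10 the median ratios on that scale were 1.16 over unstimulated cells and 1.23 over LPS. Because the controls are shared, these values stand side by side only.

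Among distal members with all (+)-JQ1 libraries above all libraries without it, and at least 100 normalized counts, the 8 with the largest smaller ratio were described in full. The first lay 8.37 kb downstream of a start site of Brd2, a BET protein itself (chr17:34243128-34243982, intergenic). Its CPM was 2.75, 3.29 and 3.35 in unstimulated cells, 7.82, 7.09 and 7.47 with (+)-JQ1, 3.77, 4.36 and 5.81 with LPS alone and 11.5, 11.8 and 12.4 with LPS + (+)-JQ1. IL-10 alone gave 2.92, 3.52 and 3.94 CPM and LPS + IL-10 4.13, 3.84 and 3.76 CPM. All 6 libraries with (+)-JQ1 were above the 12 others, and LPS + IL-10 did not differ detectably from IL-10 (log2 fold change 0.13 ± 0.19 SE, FDR 0.7).

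A peak 60.6 kb from the start site of 4930546C10Rik (chr18:69048013-69050421, intergenic) rose from 6.41, 5.25 and 5.57 CPM to 14.4, 14.1 and 13.7 with (+)-JQ1 and from 5.76, 5.00 and 4.15 with LPS to 16.0, 13.6 and 14.5 with both. Here too no library without (+)-JQ1 reached the 6 with it, and LPS + IL-10 was lower than IL-10 (log2 fold change -0.71 ± 0.18 SE, FDR 0.0015). An intronic peak of Ppp1r1c (chr2:79553485-79554293), which encodes an inhibitor of protein phosphatase 1, had 10.6, 11.6 and 15.6 CPM unstimulated, 25.0, 26.7 and 24.9 with (+)-JQ1, 4.42, 5.05 and 5.46 with LPS alone and 12.4, 18.6 and 12.1 with LPS + (+)-JQ1. LPS lowered it also in IL-10-treated cells, from 13.7, 14.1 and 14.9 to 5.97, 7.63 and 6.79 CPM (log2 fold change -1.12 ± 0.16 SE, FDR 2.1e-08). With LPS + (+)-JQ1 the peak therefore stood near its unstimulated level, with 1 library above and 2 within the unstimulated range.

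The Ugt1a locus encodes UDP-glucuronosyltransferases, which conjugate small molecules for excretion, through alternative first exons. Its member 3.99 kb upstream of a Ugt1a6a start site (chr1:89994847-89996836) had 5.24, 5.38 and 5.63 CPM unstimulated, 9.89, 12.1 and 9.95 with (+)-JQ1, 3.07, 3.19 and 2.25 with LPS alone and 8.88, 7.63 and 7.29 with LPS + (+)-JQ1. It was 1 of 4 members within 28.8 kb there, whose ratios ranged from 1.35 to 1.96 without LPS and from 1.34 to 2.80 with LPS. Unlike the peak in Ppp1r1c, it did not fall with LPS + IL-10 against IL-10 (log2 fold change 0.25 ± 0.18 SE, FDR 0.37).

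A peak 138 kb from Maf (chr8:118092229-118092977), which encodes a basic leucine zipper factor of macrophages, had 2.99, 3.10 and 4.26 CPM unstimulated, 7.71, 6.53 and 6.14 with (+)-JQ1, 4.24, 4.07 and 4.09 with LPS alone and 9.84, 7.53 and 8.18 with both agents. With IL-10 it had 5.01, 7.28 and 5.08 CPM and with LPS + IL-10 9.45, 7.57 and 7.42 CPM, a range that overlapped that of LPS + (+)-JQ1. The LPS response in IL-10-treated cells missed the threshold (log2 fold change 0.45 ± 0.17 SE, FDR 0.054). The peaks closer to the gene went the other way. Of the 13 peaks within 25 kb of a start site of Maf, 0 were members and 5 met the rule turned over, that is, were lowered by (+)-JQ1.

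The other 3 distal peaks lay within genes. In Dscam (chr16:97331616-97332406), a cell adhesion gene, CPM was 5.49, 5.63 and 7.28 unstimulated, 13.1, 11.6 and 10.7 with (+)-JQ1, 3.72, 4.80 and 4.57 with LPS alone and 8.30, 9.47 and 9.69 with both. In Tnfaip8 (chr18:50204180-50204982), a gene induced by TNF, it was 5.82, 7.40 and 7.56, 15.1, 12.9 and 15.8, 5.15, 4.26 and 5.16 and 9.40, 10.4 and 8.80 in the same order. In Tmem87b (chr2:128658559-128660054) it was 6.57, 6.07 and 6.60, 11.9, 13.6 and 12.8, 2.42, 1.81 and 3.56 and 5.29, 6.97 and 4.25, so that LPS + (+)-JQ1 overlapped the unstimulated range. None of the 3 passed the test for LPS + IL-10 against IL-10, with log2 fold changes of 0.07 ± 0.16, 0.21 ± 0.16 and -0.20 ± 0.18 (SE) and FDRs of 0.82, 0.42 and 0.5.

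Among members of the authors' promoter table chosen in the same way, the one at Rcbtb2 (chr14:73522333-73523451) had 18.6, 21.6 and 26.0 CPM unstimulated, 37.6, 39.5 and 38.9 with (+)-JQ1, 10.6, 12.0 and 12.9 with LPS alone and 20.4, 25.0 and 22.9 with both. With LPS + (+)-JQ1 it thus lay within the unstimulated range, and with LPS alone below it. It fell with LPS in IL-10-treated cells as well, from 30.2, 31.1 and 26.4 to 15.1, 14.8 and 12.4 CPM (log2 fold change -1.09 ± 0.14 SE, FDR 1.1e-09). At Ndufaf1 (chr2:119488280-119488978), which encodes an assembly factor of respiratory complex I, the values were 7.15, 8.79 and 8.64, 13.9, 13.1 and 13.3, 9.61, 7.20 and 7.35 and 15.3, 12.2 and 13.1, with overlapping values for LPS and unstimulated cells. The LPS response there did not pass the test in IL-10-treated cells (log2 fold change -0.20 ± 0.15 SE, FDR 0.4).

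**Figure D3:**
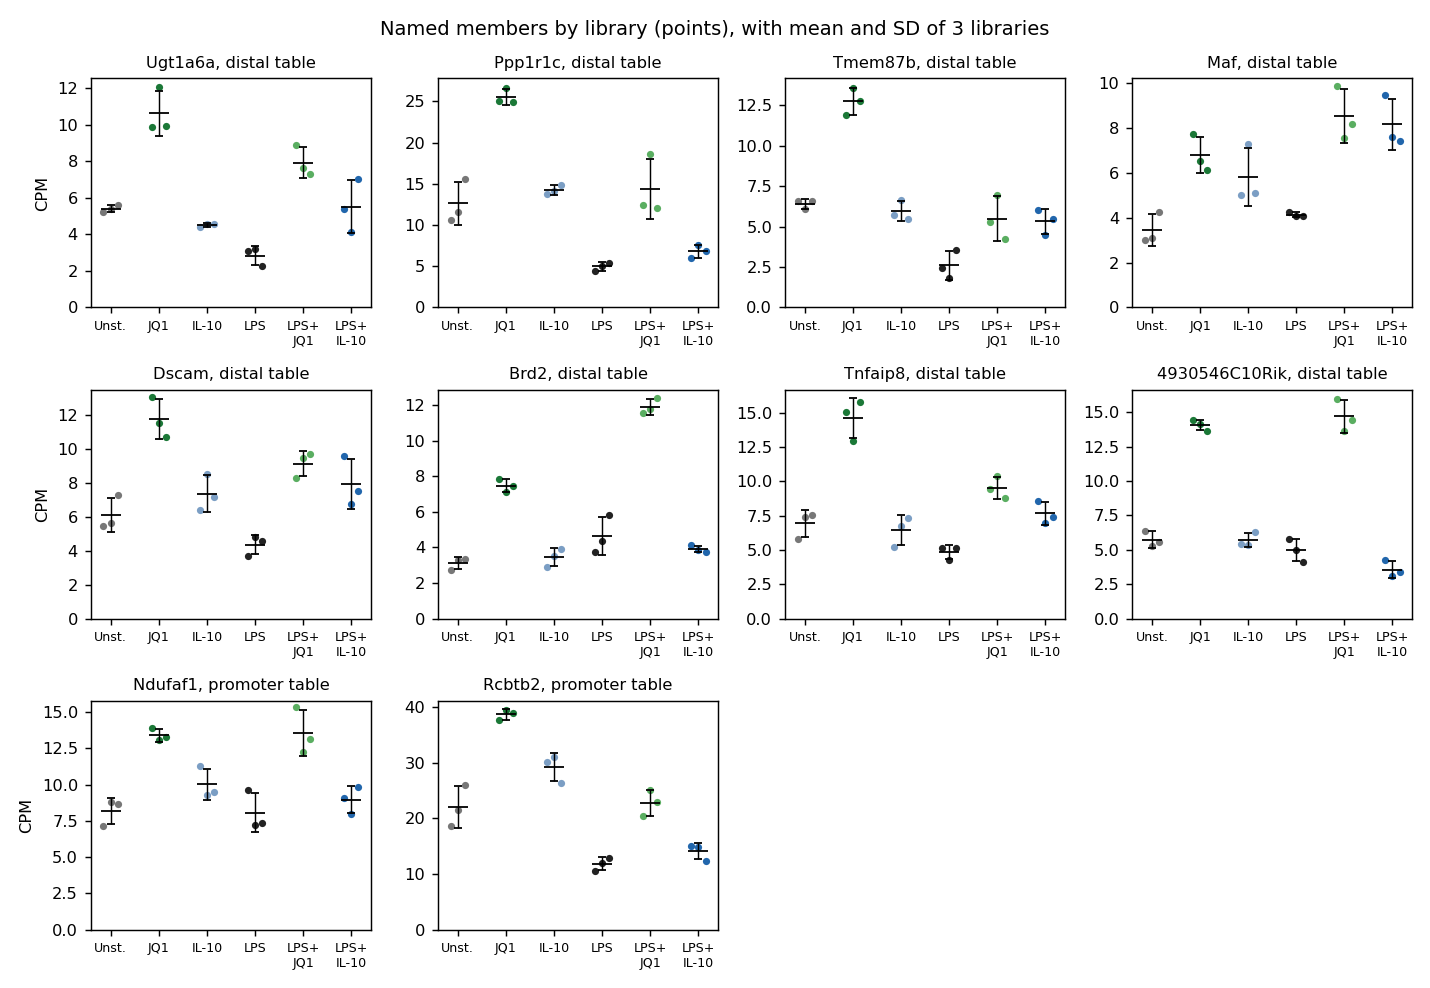
CPM (y) in the 18 libraries for the 8 distal members and the members at Rcbtb2 and Ndufaf1, chosen by their smaller ratio, by condition (x). Points are libraries, horizontal marks and bars the mean and SD of 3 libraries; in every panel the (+)-JQ1 points lie above the unstimulated ones and the LPS + (+)-JQ1 points above the LPS ones.

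The 4 members with the highest level in (+)-JQ1 were all separate with and without it in either state. The promoter of Zfp36l2 (chr17:84586283-84587729), which encodes a protein that promotes mRNA decay, had 66.1 ± 8.44 CPM unstimulated (SD, n = 3), 87.8 ± 4.76 with (+)-JQ1, 42.6 ± 1.88 with LPS alone and 56.2 ± 8.34 with both. The others were peaks of the promoter table at Gtf2ird2 and of the sorting nexin gene Snx5, with 67.9 ± 5.50 and 64.3 ± 3.13 CPM in (+)-JQ1 (SD, n = 3), and a distal peak nearest to the defensin gene Defb30 with 64.7 ± 5.98. Their ratios ranged from 1.3 to 1.63 without LPS and from 1.31 to 1.5 with LPS.

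Members had another member nearby more often than the other peaks at the minimum level had one. Another member lay within 10 kb of 239 members (12.2%), against 4.46% of the peaks at that level that were not members. The 4335 neighbours that were not members had median ratios of 0.946 without LPS and 1.12 with LPS, against 0.881 and 1.02 over all peaks at the minimum level. When members up to 25 kb apart were joined, 1482 stood alone, 161 pairs and 33 groups of 3 formed, and 12 groups held 4 or more. The 3 groups with the most members were chosen for description after their values were seen.

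The first held 9 members over 58.1 kb at Sepp1 (chr15:3177857-3235914), the gene of the selenium carrier selenoprotein P, reaching into the adjoining Ccdc152. Summed over the 9, CPM was 66.5, 75.8 and 90.5 unstimulated, 130, 143 and 139 with (+)-JQ1, 31.6, 37.8 and 40.1 with LPS alone and 41.7, 59.3 and 52.3 with LPS + (+)-JQ1. IL-10 alone gave 79.4, 85.7 and 88.8 and LPS + IL-10 37.4, 41.2 and 34.3. The sums were lower with LPS both with and without IL-10, and 8 of the 9 were called lower in LPS + IL-10 against IL-10, beside 8.06% of all tested peaks. The rise with (+)-JQ1 in LPS was on a low level, and no sum with LPS + (+)-JQ1 reached an unstimulated one. The 3 members with the largest fall among all members, by the rule for LPS + IL-10 against IL-10, were here (starting at 3231712, 3232292 and 3235039, log2 fold changes -2.59 ± 0.31, -2.79 ± 0.21 and -3.00 ± 0.28 SE, FDR 4.6e-11, 1.3e-20 and 6.5e-16).

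The second group held 9 members over 47.5 kb of chromosome 19 (chr19:5790317-5837817), 4 of which overlapped Neat1, the long noncoding RNA that scaffolds paraspeckles. Their summed CPM was 114, 129 and 128 unstimulated, 179, 172 and 165 with (+)-JQ1, 52.5, 66.9 and 67.5 with LPS alone and 127, 164 and 147 with LPS + (+)-JQ1. LPS + (+)-JQ1 lay at or above the unstimulated range in 2 of 3 libraries, and LPS alone lay far below it. With IL-10 the sums were 147, 146 and 140 and with LPS + IL-10 76.2, 90.4 and 83.5, and 6 of the 9 were called lower, beside the same 8.06%. The peaks overlapping the 3′ part of Neat1 had the largest ratios in LPS, with 3.76 for chr19:5827097-5829501 (3.98, 4.95 and 4.98 CPM with LPS and 14.0, 20.8 and 17.5 with both) against 1.43 without LPS.

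The third group was between Hist1h4j and Hist1h4k, genes of histone H4 in the large histone cluster of chromosome 13 (chr13:21827641-21839744), and held 5 intergenic members. One of them (chr13:21831732-21834702) had the largest ratio with LPS of all members. Its CPM was 2.75, 3.23 and 3.01 unstimulated, 8.86, 7.78 and 8.81 with (+)-JQ1, 1.34, 1.23 and 1.42 with LPS alone and 6.39, 6.20 and 9.07 with LPS + (+)-JQ1, ratios of 2.83 and 5.43. IL-10 gave 2.87, 2.27 and 4.03 and LPS + IL-10 1.09, 1.72 and 1.25. The 6 libraries with (+)-JQ1 were separate from the 12 others, which included both IL-10 conditions. Of the 5 members, 3 were called lower in LPS + IL-10 against IL-10, beside 8.06% of all tested peaks. Promoter peaks of the flanking genes were not members, with ratios of 0.99 and 1.05 at Hist1h4j and 1.15 and 1.27 at Hist1h4k. Of the 16 peaks within 20 kb of the group, all had a higher mean with LPS + (+)-JQ1 than with LPS, and 10 had a higher mean with (+)-JQ1 than unstimulated.

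**Figure D4:**
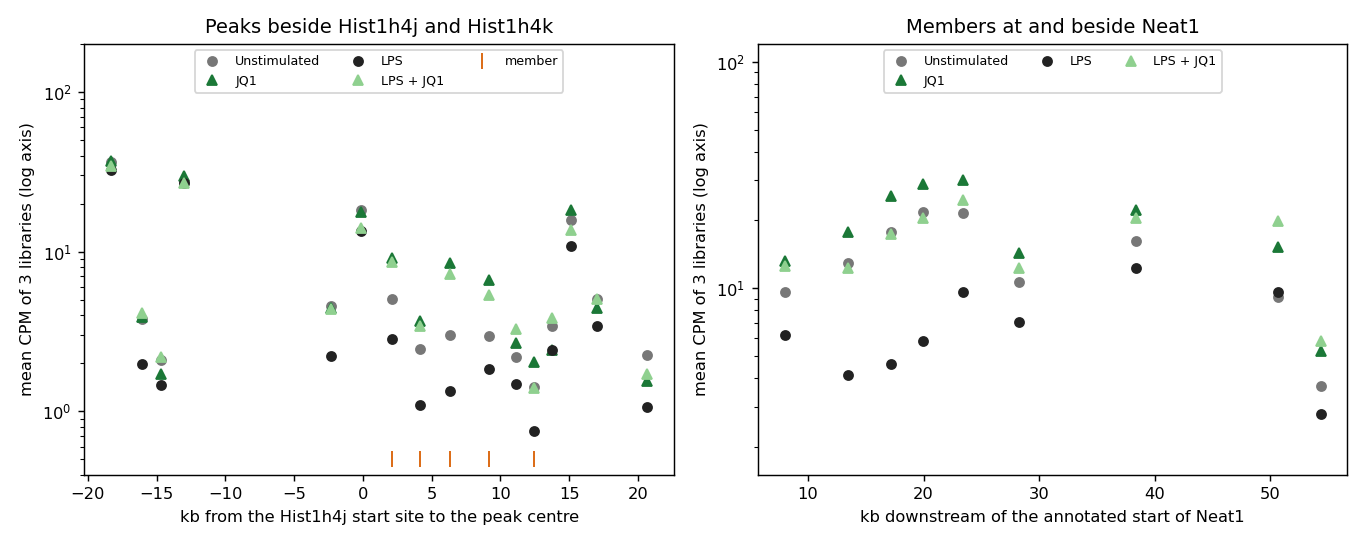
Mean CPM of 3 libraries (y, log axis) by position (x, kb) for the 16 peaks around the 5 members between Hist1h4j and Hist1h4k, where orange ticks mark members (left, in the direction of rising coordinates from the start site of Hist1h4j), and for the 9 members at and beside Neat1 (right). On the left the (+)-JQ1 triangles lie above the circles over the 5 members, the LPS + (+)-JQ1 triangles over 4 of them, and both come close to them at the promoters near 0 and 15 kb; on the right the LPS circles are lowest at 8 of the 9 members.

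Gene lists, 8 in all, were counted with the peaks within 25 kb of a start site. Over all tested peaks, 9.33% were called higher and 3.29% lower with (+)-JQ1 alone, and 2.07% higher and 3.67% lower with LPS + (+)-JQ1 against LPS. With (+)-JQ1 alone the shares were 18.2% and 2.35% at the minimum level, and 26.4% and 2.48% over all promoter peaks. In LPS they were 3.75% and 4.28%, and 2.32% and 3.65%. Peaks of the lists lie near start sites, and whether their calls exceed those of similar peaks was not tested. These calls rest on TMM scaling. On CPM of the total count the lists' median ratio without LPS lay between 0.883 and 0.964, on the other side of 1 from most calls, whereas in LPS it lay between 1.04 and 1.16 for all but the inflammatory mediators (0.896). BET and P-TEFb genes (13) had 3 members among 111 peaks at the minimum level, namely the Brd2 peak above and a pair overlapping a UTR of Hexim1, which also count for Hexim2. The larger Hexim1 peak (chr11:102980742-102982651) had 5.07, 7.21 and 6.14 CPM unstimulated, 6.27, 8.35 and 10.1 with (+)-JQ1, 4.81, 5.88 and 6.35 with LPS alone and 12.3, 11.9 and 10.0 with both. The groups overlapped without LPS and were separate with LPS. Over all 175 peaks of the list 27 were called higher and 0 lower with (+)-JQ1 alone, and 10 higher and 0 lower with LPS + (+)-JQ1 against LPS. For the 67 histone genes the counts were 32 higher and 4 lower, and 27 higher and 10 lower, of 198 peaks, with 6 members.

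Lipid handling genes (18) had 15 members among 172 peaks at the minimum level, or 8.72%, the highest share of the lists, beside 1.98% of all peaks at that level. Members lay near Abca1 and Abcg1, which export cholesterol, Apoe, the scavenger receptor gene Cd36, Mylip, the nuclear receptor gene Pparg and Pltp. The member overlapping a UTR of Apoe (chr7:20278523-20282743) had 27.4, 41.0 and 45.9 CPM unstimulated, 46.7, 57.2 and 59.2 with (+)-JQ1, 8.05, 7.40 and 8.72 with LPS alone and 11.7, 15.3 and 13.4 with both. LPS lowered it more than (+)-JQ1 raised it, and it fell in IL-10-treated cells as well (log2 fold change -1.68 ± 0.15 SE, FDR 6.4e-17). Of the 258 peaks of the list 44 were called higher and 12 lower with (+)-JQ1 alone, and 27 and 11 in LPS.

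Lysosome and autophagy genes (33 with a start site) had 15 members among 363 peaks at the minimum level, 4 of them near Ctsb, the gene of the protease cathepsin B, and 2 each near Ctsd, Lamp2 and Atp6v0d2. A distal peak overlapping a UTR of Ctsb (chr14:63757356-63763362) had 34.6 ± 2.81 CPM unstimulated (SD, n = 3), 52.8 ± 3.63 with (+)-JQ1, 15.4 ± 2.17 with LPS alone and 21.9 ± 6.81 with both, and libraries with and without (+)-JQ1 overlapped in LPS. The promoter of Lipa, which encodes lysosomal acid lipase, had 25.9 ± 2.18, 34.1 ± 1.14, 21.8 ± 1.46 and 32.9 ± 2.65 in the same order. Over 528 peaks of the list 95 were called higher and 18 lower with (+)-JQ1 alone, and 51 and 15 in LPS.

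Macrophage identity genes (20 with a start site) had 10 members among 254 peaks at the minimum level. They included the promoter of Cd14, the LPS co-receptor, with 14.8, 16.3 and 22.1 CPM unstimulated, 33.8, 32.7 and 33.7 with (+)-JQ1, 19.6, 17.4 and 18.7 with LPS alone and 28.2, 34.8 and 27.8 with both. An intronic peak of Sfpi1, the gene of PU.1 (chr2:90924302-90926054), had 18.6 to 21.2 CPM unstimulated, 32.0, 32.8 and 32.0 with (+)-JQ1, 25.4, 23.4 and 25.3 with LPS and 31.1, 34.0 and 33.2 with both. Both were separate with and without (+)-JQ1 in either state. In this list 63 of 392 peaks were called higher and 21 lower with (+)-JQ1 alone, and 24 and 5 in LPS.

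Inflammatory mediators (19 genes) had 2 members among 149 peaks at the minimum level (1.34%). Of their 268 peaks, 32 were called higher and 14 lower with (+)-JQ1 alone, but 2 higher and 79 lower in LPS, more lower than higher in LPS as only the cell cycle list also had. The 2 members were distal, 12.2 kb from Ccl2 and 9.07 kb from Ccl3 (and within 25 kb of Ccl4), genes of chemokines that attract monocytes. The peak near Ccl3 (chr11:83453197-83454372) had 16.7, 16.3 and 18.1 CPM unstimulated, 30.0, 28.3 and 29.5 with (+)-JQ1, 24.9, 22.5 and 23.1 with LPS alone and 32.8, 31.6 and 28.1 with both, and rose with LPS in IL-10-treated cells (log2 fold change 0.57 ± 0.14 SE, FDR 0.00089). Oxidative stress genes (10) had 5 members among 87 peaks at the minimum level, near Nfe2l2, Gclc, Txnrd1, the cystine transporter gene Slc7a11 and Keap1, and cell cycle and p53 genes (12) had 3 among 113, near Cdkn1a and Mki67. In these 2 lists 27 and 29 peaks were called higher and 3 and 7 lower with (+)-JQ1 alone, and 17 and 3 higher and 2 and 17 lower in LPS.

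The 3 members that rose most with LPS in IL-10-treated cells were distal and 2 of them weak. They lay near Pde1a, a cyclic nucleotide phosphodiesterase gene (chr2:79998790-79999413, 0.487, 0.868 and 0.687 CPM with IL-10 and 2.34, 1.95 and 2.17 with LPS + IL-10), near Gm11016 (chr13:102283140-102283811, 0.487, 0.723 and 0.778 and 2.24, 1.89 and 1.98) and near the zinc transporter gene Slc30a4 (chr2:122543962-122545579, 3.75, 4.82 and 3.25 and 12.3, 11.1 and 9.97). The log2 fold changes were 1.61 ± 0.33, 1.56 ± 0.33 and 1.45 ± 0.17 (SE), with FDRs of 0.00012, 0.00016 and 1.4e-11. Only the peak near Slc30a4 was separate in both (+)-JQ1 comparisons.

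Members were unevenly spread over the chromosomes. Chromosome X held 107 members, 5.45% of all (95% Wilson interval 4.53 to 6.55, counting error only), against 1.73% of the peaks at the minimum level and 0.434% of the lowered peaks. Of the peaks at the minimum level on chromosome X 6.23% were members, whereas on the autosomes the share ran from 1.35% on chromosome 8 to 2.53% on chromosome 13. The median ratio of all peaks at this level on chromosome X was 1.11 without LPS and 1.06 with LPS, against 0.881 and 1.02 overall. Peaks of chromosome X that were not members took 1.13%, 1.23% and 1.34% of the counts of unstimulated libraries and 1.40%, 1.42% and 1.40% with (+)-JQ1, and 1.35%, 1.34% and 1.32% with LPS against 1.37%, 1.38% and 1.35% with LPS + (+)-JQ1. With IL-10 alone these peaks took 1.36%, 1.37% and 1.38%, also above every unstimulated library, and with LPS + IL-10 a mean of 1.29%. The rise over unstimulated cells was thus not particular to (+)-JQ1. The share of counts in promoter peaks moved in the same way without LPS. It was 40.8%, 42.8% and 45.5% unstimulated, 48.4%, 51.1% and 48.9% with (+)-JQ1 and 46.4%, 46.2% and 46.7% with IL-10. The part of the promoter share in the result was not tested. With TMM-scaled CPM 205 members, or 4.02%, were on chromosome X.

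**Figure D5:**
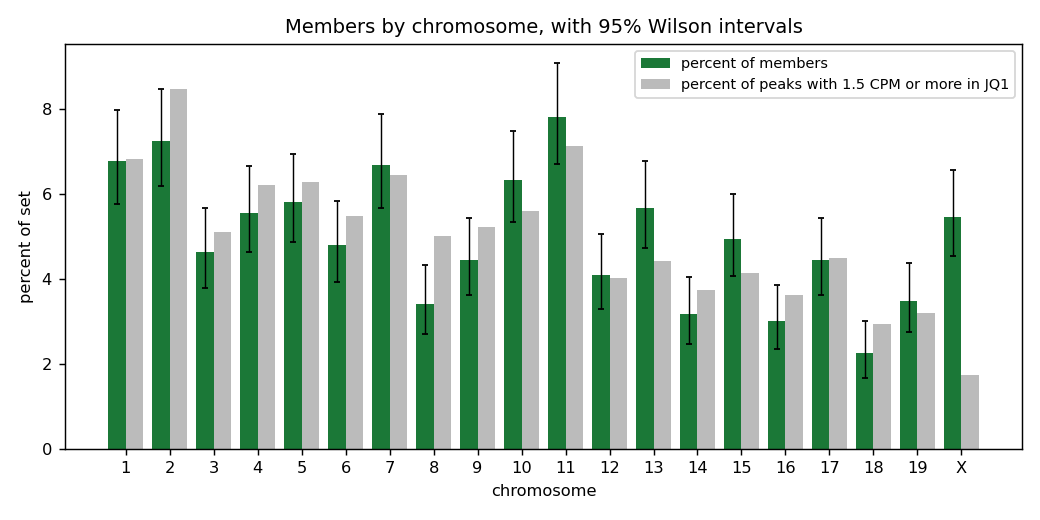
Percent of the 1962 members (green, with 95% Wilson intervals) and of the 99169 peaks at the minimum level (grey) on each chromosome (x), leaving out chromosome Y with 2 members. Chromosome X stands out, with 5.45% of members against 1.73% of peaks at the minimum level.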

How the data were processed

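ATAC-seq was measured in 18 libraries of Il10-/- BMDMs. The deposited table holds counts of reads per peak of a union peak set, and a promoter and a distal table give each peak's class. The submitters' processing notes name Bowtie2, MACS2, ChIPseeker and the mm9 genome, and the study's methods name PEPATAC. The tool that counted reads is not given in the sources used here. Further columns of the table, 6 in number, matched no sample given here and were not used.

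CPM was computed from the column sums. Tests used edgeR 4.0.16 in R 4.3.3 (quasi-likelihood test, TMM scaling, filterByExpr, all 6 conditions in 1 fit, Benjamini-Hochberg FDR under 0.05 over 194230 peaks), with DESeq2 1.42.0 as an alternative. In counts simulated for 193819 tested peaks of the comparison of (+)-JQ1 with unstimulated cells, 157 of 200 peaks changed by 1.5 on the log2 scale were recovered, with 10 false calls. Members had smaller median log2 fold changes, 0.78 for (+)-JQ1 over unstimulated cells and 0.56 for LPS + (+)-JQ1 over LPS. Recovery and false calls at changes of that size were not tested. The members, gene lists and motifs were chosen with earlier results of these data known. Peaks were named by rule: the 8 distal and 4 promoter members with the largest smaller ratio among those without overlap and with 100 or more normalized counts, the 4 with the highest level, the 3 largest rises and falls with LPS + IL-10 against IL-10, those closest to each limit, and up to the 3 members with the highest level in (+)-JQ1 per gene list. Of the members named by this rule, 2 are not reported here. Positions are those of the deposited table, and genes and places come from GENCODE M1 (mm9), with protein-coding genes only.

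Replicates came from 3 mice. The labels number the replicates, and the series text describes matched samples, but libraries with the same number did not deviate together from their condition means (mean r 0.0057 over 45 pairs, against -0.0029 over 90 other pairs). Alternatives were another scaling, filter, threshold, GC correction, lane (5 or 6) as a covariate, a replicate block, and leaving out each replicate. Intervals and shares cover counting error only. Motifs of CRE, ETS, E-box, M-box, RUNX, MEF2, KLF/SP, NRF1, NFY, E2F, EGR, GATA, TEAD and HSF factors were searched in the same way and are not reported here.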

Additional observations from a re-analysis of the deposited data

Results flagged for a closer look

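The interaction term, the log2 effect of (+)-JQ1 with LPS minus that without, had an FDR under 0.05 in 12 members (edgeR, quasi-likelihood). It used the same libraries and ratios as the choice of members, so the values are a description and no independent test. With total counts, the scaling of the rule, 16 members were called, 15 larger and 1 smaller with LPS, and 6 of the 12 were among them. TMM raised the median ratio over the peaks at the minimum level by 0.29 on the log2 scale without LPS and by 0.01 with LPS. DESeq2 called 11 of the 12, and edgeR called none of the members without replicate 2, 6 without replicate 1 and 93 without replicate 3.

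The log2 effect with LPS exceeded that without LPS by 1.16 and 1.14 at peaks overlapping Neat1 (nearest protein-coding start site Frmd8, starting at 5824070 and 5827097) and by 0.89 at the next one (5831405), which DESeq2 did not call. It exceeded it by 1.22 and 0.96 at intergenic peaks 72.8 and 68.8 kb from Irg1, the gene of the enzyme that makes itaconate (starting at 103370947 and 103376303). At the first of these, mean CPM was 20.5 unstimulated, 34.0 with (+)-JQ1, 13.0 with LPS and 59.4 with LPS + (+)-JQ1.

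The remaining 7 of the 12 had a smaller effect with LPS under TMM scaling, where total counts called 1 member in this direction. Their differences were -1.07 in Rnf144a, -0.84 at Rcbtb2 (starting at 73542620), -0.76 near Tlr2, which encodes a receptor for bacterial lipoproteins, -0.68 in Abca1, -0.66 near Ccl3, -0.64 near Ccl6 and -0.64 at Fubp3. All 7 kept a ratio above 1.3 in LPS, as the rule required.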

How the results depend on the processing

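The number of peaks that met the rule moved with the scaling and thresholds, to 5101 with TMM, 5614 with DESeq2 size factors and 5648 with GC-corrected CPM, and to 4729 and 321 with ratios of 1.2 and 1.5. The share on chromosome X was then 4.02%, 3.85% and 3.82% in the first 3 of these. Leaving out 1 replicate number, or the first unstimulated library, gave 1846 to 2435 peaks, but 1270, 1351 and 1480 of the 1962 members were still chosen without replicates 1, 2 and 3. Without 1 replicate, 987 to 1665 members were called higher with (+)-JQ1, 264 to 1100 with LPS + (+)-JQ1 against LPS, 66 to 76 higher and 392 to 632 lower with LPS + IL-10 against IL-10, and 0 to 93 in the interaction. The interaction had 47 calls by DESeq2 and 7 without the first unstimulated library, and with total counts in place of TMM it split into 15 larger and 1 smaller, against 5 and 7.

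With the replicate block the counts were 1778, 1169, 102, 658 and 11 in the same order, and 1646 members had every same-numbered pair at or above 1. The block changed none of these counts by over 1.5 times. Over whole peaks the members' share with AP-1, PU.1 and C/EBP letters exceeded that of the peaks at the minimum level by 2.65, 5.43 and 3.31 percentage points and CTCF differed by -8.91, and for promoter members AP-1 exceeded by 2.67. With TMM-scaled CPM 70.8%, 70.9% and 73.4% of the chosen peaks were higher in replicates 1, 2 and 3 when left out. The same share of all peaks at the minimum level was not computed on that scale.

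For LPS + IL-10 against IL-10 some named members that were not called changed sign when 1 replicate was left out. Their log2 fold changes then ran from -0.21 to 0.29 (Dscam), -0.043 to 0.37 (Tnfaip8), -0.71 to 0.022 (Atg4c), -0.027 to 0.37 (Hexim1, starting at 102979973), -0.051 to 0.30 (Brd2), -0.012 to 0.21 (E230025N22Rik), -0.13 to 0.038 (Keap1) and -0.044 to 0.13 (Sfpi1), the first 7 changing sign without replicate 1 and the last without replicate 2. The cause was not tested. Leaving out the first unstimulated library alone, TMM scaling of the replicate left out, and the chromosome X share under each setting were added after seeing the data. With 3 libraries a group, an exact permutation test of a single peak could not go below p = 0.1.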
